A study of Mus musculus with 6 samples.

Results

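The S100 genes encode small EF-hand calcium-binding proteins, and 10 of them were followed here in mouse aorta: S100a1, S100a4, S100a6, S100a8, S100a9, S100a10, S100a11, S100a13, S100a16 and S100b. Members were found as every probe set of the array table whose platform symbol was one of these names. This gave 14 of the 45101 probe sets and 9 of the 10 genes. The only probe set listing S100a11 carried 3 symbols, S100a11, its pseudogene S100a11-ps and Gm12854, so no value is given for that gene. Total RNA from whole aorta of 32-week-old mice had been profiled on 6 single-colour oligonucleotide arrays. The 3 wild-type arrays came from C57BL/6J mice and the 3 apoE-/- arrays from mice lacking apolipoprotein E on the same C57BL/6J background, in which cholesterol accumulates in plasma and plaques form in arteries. Both groups share strain, age and tissue, and no other treatment, allele, sex or diet is given in the sources used here. The labels do not say whether a replicate was 1 mouse, a pool or a repeat preparation, so the p-values rest on the variation among these samples alone, part or all of which may be technical.

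Most S100 proteins, though not all, bind calcium through a pair of EF-hand loops and act as dimers. On binding calcium these expose a surface that takes hold of target proteins such as annexins, myosin or the p53 protein. Some also leave the cell: S100a8 and S100a9 form calprotectin, which is very abundant in neutrophils and present in monocytes, and which as an alarmin signals through Toll-like receptor 4 and the receptor for advanced glycation end products. In the vessel wall S100a4 is known from fibroblasts, macrophages and smooth muscle cells that have left the contractile state, and S100b from Schwann cells, adipocytes and cartilage cells.

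The values are linear intensities that the authors had scaled to a common level, with array medians from 178 to 195.5 units. Apoe, read as a check of the labels, was between 4309 and 5686 units on the wild-type arrays and between 56.3 and 462 units on the apoE-/- arrays. The 10 smooth muscle markers were all measured, with a summed intensity of 68602 to 78404 units in wild type and 60134 to 71500.5 units in apoE-/-. None was called (smallest p for Smtn, adjusted p = 0.0825), but all 10 had a log2 change below 0, with a median of -0.20 against -0.05 over all genes, and 5 of the 10 did not overlap between genotypes, against 24.7% of all genes. Of 10 endothelial markers 1 was called, Emcn (log2 change 0.76 ± 0.16, SE), and none with wild type replicate 1 or 3 or apoE-/- replicate 1 or 3 left out. Over all genes 3.65% were called. All 10 endothelial markers had a log2 change above 0, with a median of 0.22 against -0.05 over all genes. Of these 10, 2 did not overlap between genotypes, against 24.7% of all genes. The apoE-/- replicate 2 array was the lowest apoE-/- array for several macrophage genes given below, and the wild type replicate 3 array carried a summed signal of 10 striated muscle markers of 20908 units against 2635 to 5163 units on the other 5 arrays.

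S100a4 was the only measured member that passed the test between the genotypes: 1 of 9 S100 genes rose in apoE-/- aorta and none fell, at a Benjamini-Hochberg adjusted p under 0.05 in a limma fit over 13052 genes. In that fit 3.65% of all genes were called, 3.19% as higher and 0.467% as lower in apoE-/-. The neutrophil alarmins S100a8 and S100a9 varied widely between arrays of the same genotype and overlapped between genotypes. S100a10 and S100b lay somewhat higher in apoE-/- without passing the test, and S100a1, S100a6, S100a13 and S100a16 lay close to their wild-type level. The median log2 change of the 9 genes was 0.12, against -0.05 over all genes tested. The arrays of the genotypes did not overlap for 1 of the 9, against 24.7% of all genes. At an unadjusted p under 0.05 the count was 2 of 9, S100a4 and S100a10, against 18.4% of all genes. At this background a count of 1 or 2 among 9 is not a result about the family as a group.

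**Figure D1:**
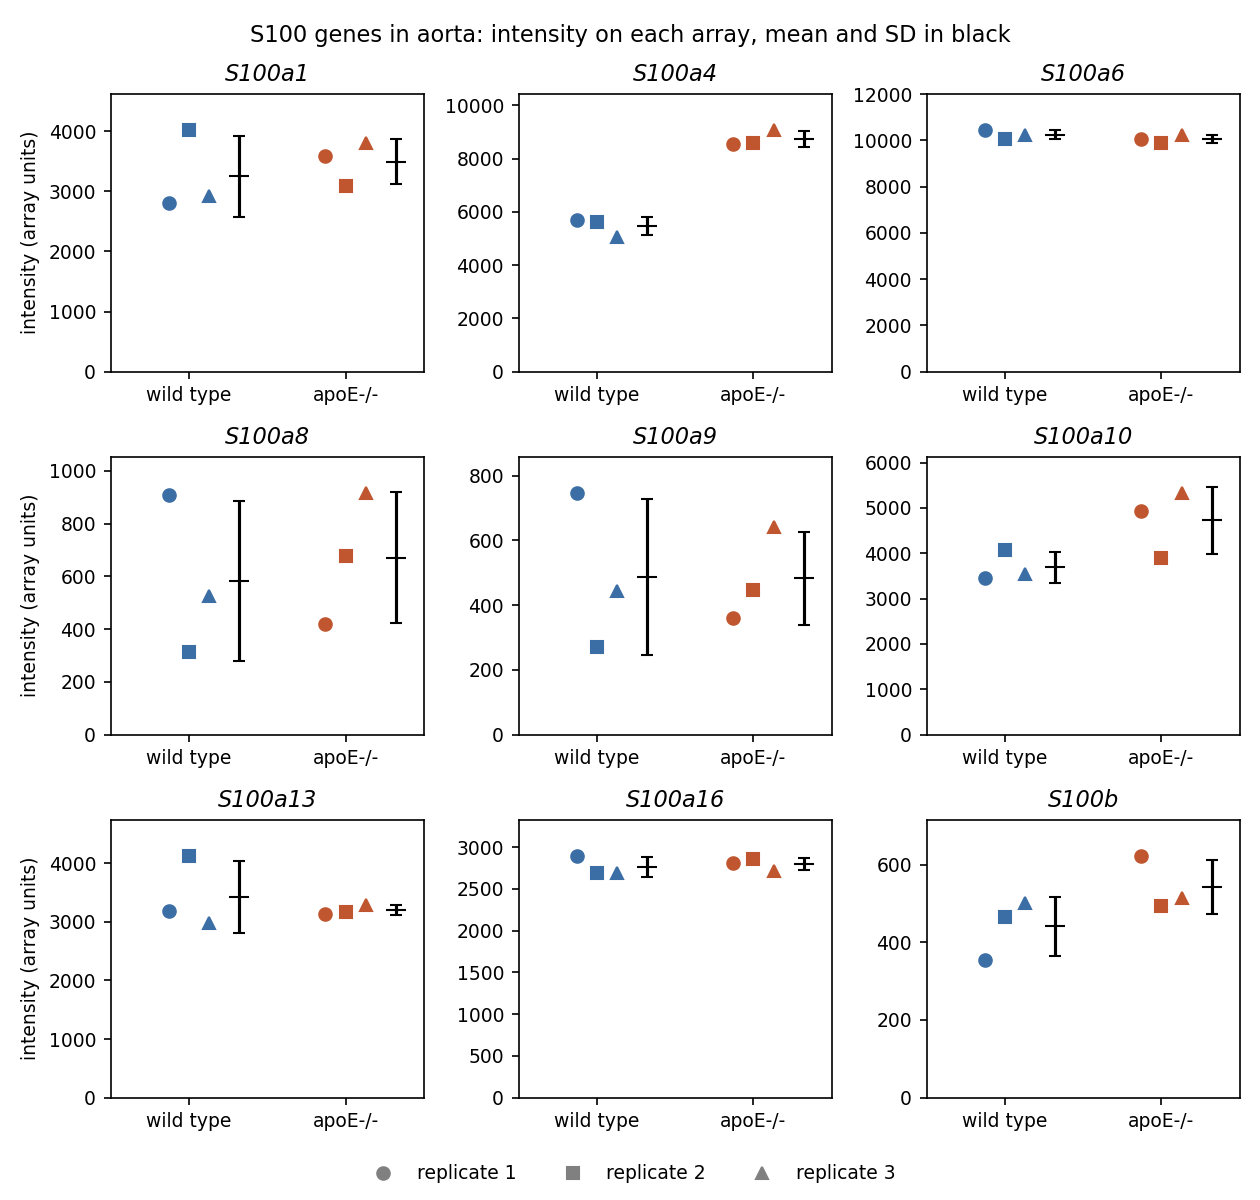
Intensity in array units (linear axis from 0) of the probe set standing for each of 9 S100 genes on 3 wild-type (blue) and 3 apoE-/- (orange) arrays, with the mean and SD in black. Only in the S100a4 panel do all apoE-/- arrays (8544 to 9085 units) lie above all wild-type arrays (5070 to 5679 units).

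S100a4, also called fibroblast-specific protein 1, binds non-muscle myosin and is made by motile mesenchymal and immune cells. Its single probe set read 5679, 5636 and 5070 units on wild type replicates 1, 2 and 3 and 8544, 8601 and 9085 units on apoE-/- replicates 1, 2 and 3. All 3 apoE-/- arrays were high and close together, and the groups did not overlap. The pooled SD of S100a4 within genotypes was 0.07 in log2, and 7.64% of genes tested varied less. The p-value rests on this small spread. S100a4 was a bright probe set, and whether its signal was compressed at that brightness was not tested. The means were 5462 ± 340 units in wild type and 8744 ± 297 units in apoE-/- (SD, n = 3 each), a 1.60-fold ratio of means. On the scale of log2(intensity + 16) the change was 0.68 ± 0.08 (SE), with a 95% interval of 0.49 to 0.87 and a limma adjusted p = 0.00419. This is a modest rise beside the other genes called higher: 358 of the 416 such genes changed by more on the log2 scale, and their median log2 change was 1.19. S100a4 was called in each of the 17 alternative analyses, with adjusted p from 0.00293 to 0.0318.

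S100a4 lies between S100a2 and S100a5 in a stretch of chromosome 3 that runs from S100a1 to S100a9 and holds 12 coding genes, all of them S100 genes (gene order from the GRCm38.p6 gene table). Of the 8 tested in that stretch 1 was called, S100a4, and of 21 tested among the 70 coding genes from S100a1 to S100a10 also 1, where 3.65% of all genes were called. S100a6, calcyclin, follows S100a4 and S100a5 in the row. Its wild-type arrays read 10463, 10060 and 10229 units and its apoE-/- arrays 10044, 9897 and 10248 units. These 6 values were nearly level and the groups overlapped. The log2 change of S100a6 was -0.03 ± 0.07 (SE), with a 95% interval of -0.20 to 0.14 (adjusted p = 0.882), so a change of the size seen for S100a4 lies outside its interval. Only 0.23% of all genes tested varied less within genotypes than S100a6. It was among the bright probe sets, at 9897 to 10463 units on arrays whose brightest probe sets lay between 15785 and 20101 units, and whether its signal was compressed at that brightness was not tested. Within each array, the difference between S100a4 and S100a6 rose by 0.71 ± 0.06 (SE) on the log2 scale in apoE-/-, and the exact two-sided permutation test gave p = 0.1, the smallest that 3 arrays against 3 allow, so this comparison could not pass the threshold.

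The promoter sequences of S100a4 and S100a6 are shown because these near neighbours differ in their result. They run from 250 bases before to 50 bases after the gene start and come from RefSeq (GRCm38.p6), in which 9 of the 10 members had an entry. Capitals mark matches, on either strand, to 5 motifs, whose positions count from 0 at the annotated start: the TATA box (TATAAA), C/EBP (TTNNGNAA), PU.1 (GAGGAAG), AP-1 (TGANTCA) and the E-box (CACGTG).
S100a4, chr3:90603520-90603819, plus strand: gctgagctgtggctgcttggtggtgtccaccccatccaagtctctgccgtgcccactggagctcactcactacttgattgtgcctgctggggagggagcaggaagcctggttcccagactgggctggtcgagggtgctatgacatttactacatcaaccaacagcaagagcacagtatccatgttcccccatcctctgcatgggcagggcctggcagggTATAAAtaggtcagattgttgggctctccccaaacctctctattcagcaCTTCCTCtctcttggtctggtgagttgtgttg
S100a6, chr3:90612644-90612943, plus strand: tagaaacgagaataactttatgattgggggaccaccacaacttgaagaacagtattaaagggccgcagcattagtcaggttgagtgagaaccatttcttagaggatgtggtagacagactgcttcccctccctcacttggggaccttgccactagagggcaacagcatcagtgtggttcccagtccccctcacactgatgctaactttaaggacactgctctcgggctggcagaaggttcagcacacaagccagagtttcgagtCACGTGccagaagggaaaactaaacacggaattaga
The S100a4 window holds a TATA box 31 bases before the gene start, at position -31, and a PU.1 match on the opposite strand at position 18. The S100a6 window holds neither of these, and has an E-box at position 14. Of all 32851 promoter windows of this length, 13.6% hold the TATA box, 13.6% the PU.1 letters and 7.15% the E-box. A match is a description of letters and does not show that a factor binds there.

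The genes whose profile over the 6 arrays was most like that of S100a4 were Ptk2b, Pik3ap1, Tbc1d22a and Tmem71. Likeness was the root-mean-square difference of log2 values centred on each gene's mean, which was 0.04 for Ptk2b, 0.06 for Pik3ap1 and 0.07 for Tbc1d22a and Tmem71. Of these, Ptk2b (adjusted p = 0.0129) and Tbc1d22a (adjusted p = 0.0175) were called higher, whereas Pik3ap1 (adjusted p = 0.0557) and Tmem71 (adjusted p = 0.0594) were not. As they were chosen by likeness over the same 6 arrays, their changes are not a result apart from that of S100a4. The profile of S100a4 was flat across the 3 apoE-/- arrays, at 1.56, 1.57 and 1.66 times its high wild-type mean of 5462 units.

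S100a4 is made by macrophages and by fibroblasts, so markers of both were read beside it. Of 13 monocyte and macrophage markers tested, 12 rose and none fell, with a median log2 change of 1.86, where 3.19% of all genes rose and their median was -0.05. Among them were Cd5l, a protein secreted by macrophages (5.29 in log2), the glycoprotein Gpnmb (3.61) and the lipid-sensing receptor Trem2. Trem2 read 17 to 34 units in wild type and 474 to 1094 units in apoE-/-, so the size of its rise depends on the log offset (4.11 with 16, 4.73 with 1 and 3.11 with 64). Trem2 passed the filter through its apoE-/- arrays, and was also called with no filter. The summed intensity of that list was 12402 to 13644 units on the wild-type arrays and 43665 to 66554 units on the apoE-/- arrays, lowest of the apoE-/- arrays on replicate 2. Cd68, a lysosomal protein of macrophages, stood at 8.09, 4.87 and 10.8 times its wild-type mean on apoE-/- replicates 1, 2 and 3, and Lgals3 at 13.2, 8.11 and 12.8 times. S100a4 on replicate 2 (8601 units) was close to replicate 1 (8544 units). It was highest on replicate 3 (9085 units), as the list sum and Cd68 were, whereas Lgals3 was highest on replicate 1. Of 14 fibroblast markers tested, 1 rose, the matrix proteoglycan Lum (log2 change 1.02 ± 0.14, SE), and the list's median log2 change was 0.11. Without apoE-/- replicate 2, 2 fibroblast markers were called. The part of either cell type in the S100a4 result was not tested, and in whole tissue more cells of a type and more RNA per cell cannot be told apart.

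**Figure D2:**
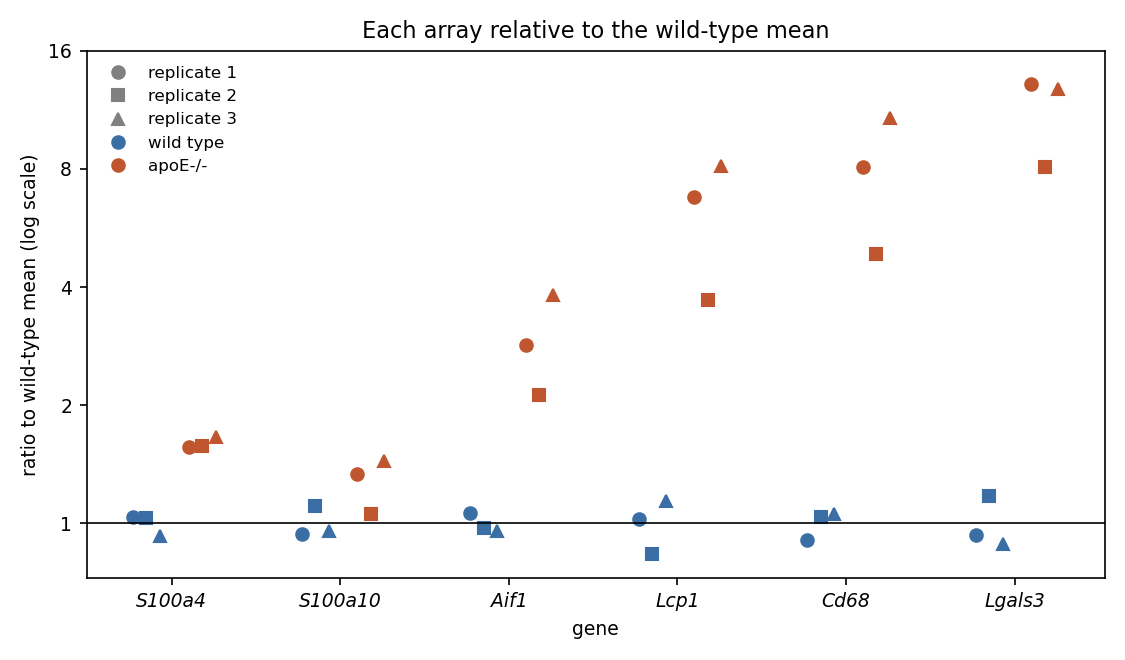
Ratio of each array to the wild-type mean of the same gene (log axis) for S100a4, S100a10, the EF-hand and actin-bundling genes Aif1 and Lcp1 and the macrophage genes Cd68 and Lgals3, with wild-type arrays in blue, apoE-/- arrays in orange and a marker shape for each replicate. S100a4 lies between 1.56 and 1.66 on the apoE-/- arrays, whereas Cd68 runs from 4.87 to 10.8 with replicate 2 lowest. The wild-type mean was 5462 units for S100a4 and 459 units for Cd68. The same added signal gives a smaller ratio on a higher mean.

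S100a8 and S100a9, the subunits of calprotectin, did not separate the genotypes. S100a8 read 909, 313 and 526 units on wild type replicates 1, 2 and 3 and 419, 678 and 916 units on apoE-/- replicates 1, 2 and 3. S100a9 read 747, 270 and 442 units on the wild-type arrays and 360, 446 and 642 units on the apoE-/- arrays. Each genotype held both high and low arrays, and both genes ran from wild type replicate 2, the lowest, through apoE-/- replicate 1, wild type replicate 3 and apoE-/- replicate 2 to the pair of wild type replicate 1 and apoE-/- replicate 3 at the top. Only the order within that top pair differed between S100a8 and S100a9.

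The mean of S100a8 was 583 ± 302 units in wild type and 671 ± 249 units in apoE-/- (SD, n = 3 each), with a log2 change of 0.26 ± 0.38 (SE, adjusted p = 0.764). That of S100a9 was 486 ± 242 and 483 ± 144 units, with a log2 change of 0.06 ± 0.34 (adjusted p = 0.944). The 95% intervals were wide, -0.61 to 1.13 for S100a8 and -0.71 to 0.84 for S100a9, and both include a rise as large as that of S100a4. Within wild type the highest S100a8 array was 2.90 times the lowest, and that of S100a9 2.77 times. The pooled SD within genotypes was 0.66 for S100a8 and 0.58 for S100a9 in log2, against a median of 0.17 over all genes, and 97.9% and 97.1% of genes tested varied less. Single arrays set the direction of both. Without wild type replicate 2 the log2 changes of S100a8 and S100a9 were -0.11 and -0.29, without wild type replicate 1 they were 0.63 and 0.42, and without apoE-/- replicate 3 that of S100a9 was -0.16, none of them called.

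The promoters of S100a8 and S100a9 are shown because these genes shared their array pattern. Marks, window and source are as for S100a4.
S100a8, chr3:90668821-90669120, plus strand: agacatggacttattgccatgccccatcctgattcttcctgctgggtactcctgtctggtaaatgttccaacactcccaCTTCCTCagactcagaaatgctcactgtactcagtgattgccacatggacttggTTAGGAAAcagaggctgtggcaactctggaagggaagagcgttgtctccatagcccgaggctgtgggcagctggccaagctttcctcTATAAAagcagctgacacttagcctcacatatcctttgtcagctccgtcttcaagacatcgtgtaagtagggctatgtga
S100a9, chr3:90695672-90695971, minus strand: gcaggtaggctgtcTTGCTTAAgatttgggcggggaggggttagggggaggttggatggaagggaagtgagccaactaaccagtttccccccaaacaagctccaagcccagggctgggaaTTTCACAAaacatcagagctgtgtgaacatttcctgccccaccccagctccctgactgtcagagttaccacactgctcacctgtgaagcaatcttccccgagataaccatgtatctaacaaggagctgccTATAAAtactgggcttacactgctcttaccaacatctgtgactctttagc
The S100a8 window holds a TATA box at position -30, a C/EBP match at position -117 and a PU.1 match on the opposite strand at position -171. The S100a9 window holds C/EBP matches on the opposite strand at positions -236 and -130 and a TATA box that begins at the annotated start itself. S100a8 and S100a9 were the only ones of the 9 members with a promoter entry whose windows hold the C/EBP letters, which are common, being in 40.7% of all windows.

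Neutrophil markers were read beside the alarmins. Of 16 listed genes, S100a8 and S100a9 not among them, 7 were tested and 1 rose, where 3.19% of all genes did. That gene was Lcn2, lipocalin 2, an iron-siderophore binding protein of neutrophil granules that macrophages and other cells also make. The mean of Lcn2 was 105 ± 20.7 units in wild type and 3893 ± 2297 units in apoE-/- (SD, n = 3 each), and its log2 change was 4.87 ± 0.35 (SE, adjusted p = 5.56e-04). Lcn2 passed the filter through its apoE-/- arrays, and was also called with no filter. Its apoE-/- arrays read 6483, 2103 and 3093 units, highest on replicate 1, where S100a8 and S100a9 were at their lowest of the apoE-/- arrays. The other 6 tested genes had log2 changes from -0.28 to 0.59 and none was called. Csf3r, the receptor for granulocyte colony-stimulating factor, read 367, 88.6 and 297 units in wild type and 307, 384 and 313 units in apoE-/-, lowest on wild type replicate 2 as S100a8 and S100a9 were. Mmp9 was barely lowest there (335.3 units, against 335.4 on apoE-/- replicate 1), and Ltf was highest there (184 units). Ngp was lowest on apoE-/- replicate 1 (219 units), Mpo on wild type replicate 3 (98 units) and Mmp8 on wild type replicate 1 (138 units). Mmp8, the neutrophil collagenase, was 153 ± 13.1 units in wild type and 223 ± 9.72 units in apoE-/- (adjusted p = 0.162). Mmp8 and, in the other direction, Ngp did not overlap between genotypes, as was so for 24.7% of all genes. The granule genes Camp, Elane, Prtn3, Ctsg, the chemokine receptor Cxcr2 and the myeloid lectin Chil3 were under the filter on dim probe sets, at 9.7 to 166 units. Of these, only Chil3 did not overlap between genotypes. It read 25.3 to 57.7 units in wild type and 98.9 to 123 units in apoE-/- (limma adjusted p = 0.131 with no filter). Without Lcn2, the summed intensity of the 12 other measured genes of the list was 1810, 1315 and 1732 units on wild type replicates 1, 2 and 3 and 1721, 1898 and 1836 units on apoE-/- replicates 1, 2 and 3. Wild type replicate 2, apoE-/- replicate 1 and wild type replicate 3 were the lowest in that order, as for S100a8 and S100a9. The latter 2 of these sums were close, at 1721 and 1732 units. The upper part of the order differed, as the sum was highest on apoE-/- replicate 2, which stood below the top pair for both alarmins. Of the 12 summed genes, 6 were under the filter. With Lcn2 included, the sum was 1438 to 1892 units in wild type. It was then 8204.5, 4000 and 4928.5 units on apoE-/- replicates 1, 2 and 3. That order, with apoE-/- replicate 1 highest, differs from that of S100a8 and S100a9. The part of neutrophils in the alarmin values was not tested. Of 7 red cell and platelet markers tested, none was called (smallest p for Alas2, adjusted p = 0.231). Their sum was highest on wild type replicate 1, at 12003 units, where S100a9 was highest, and lowest on apoE-/- replicate 3, at 6104 units, where S100a8 was highest. The part of blood in the alarmin values was not tested beyond these sums.

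**Figure D3:**
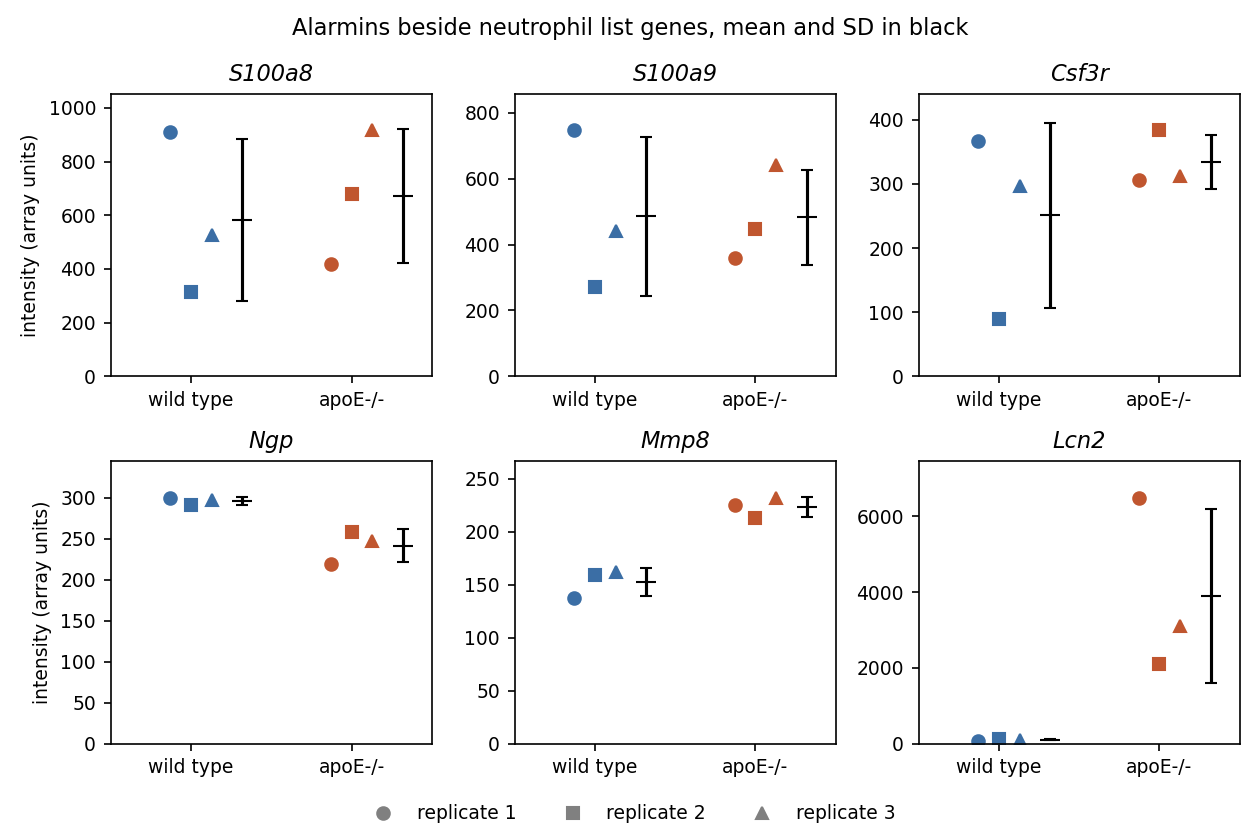
Intensity in array units (linear axes from 0) of S100a8 and S100a9 beside 4 genes of the neutrophil list on the 3 wild-type (blue) and 3 apoE-/- (orange) arrays, with the mean and SD in black. S100a8 and S100a9 share the order of their arrays but for the top pair and overlap between genotypes, whereas Lcn2 lies at 82.4 to 124 units in wild type and 2103 to 6483 units in apoE-/-.

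By the same measure of likeness, the nearest profile to S100a8 among the 13052 genes was that of S100a9, and the reverse, with a root-mean-square difference of 0.15 in log2. Next to S100a8 came Banf2 (0.18), Asprv1 (0.24) and Slc47a1 (0.24), and next to S100a9 came Asprv1 (0.15), Cdh15 (0.18) and Cd79a (0.19). None of these 5 other genes was called, and all were dim, between 83.7 and 353 units on the 6 arrays. They were chosen by likeness over the same arrays, so the lack of a call follows largely from the choice.

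S100a10, which joins annexin A2 in a complex at the cell membrane that binds plasminogen activators and ion channels, was represented by 3 probe sets. The probe set standing for the gene read 3461, 4079 and 3535 units in wild type and 4940, 3895 and 5333 units in apoE-/-. Replicates 1 and 3 of apoE-/- lay above every wild-type array, but replicate 2 lay below wild type replicate 2. The log2 change of S100a10 was 0.35 ± 0.13 (SE), with a 95% interval of 0.05 to 0.64 and an adjusted p = 0.207. A second S100a10 probe set, of the kind whose probes may match other transcripts, had a log2 change of 0.51 ± 0.21 (adjusted p = 0.276 over 27022 probe sets). A dim one, at 128 to 167 units in wild type and 170 to 256 units in apoE-/-, had 0.56 ± 0.21 (adjusted p = 0.238) and did not overlap, as was so for 22.8% of all probe sets. All 3 leaned the same way and none passed, where 2.79% of all probe sets did. Leaving out 1 array gave S100a10 changes of 0.25 to 0.48, none called. The largest was without apoE-/- replicate 2, at 0.48 ± 0.11 (adjusted p = 0.053). In that fit 551 of all genes were called higher and 138 lower, against 416 and 61 in the main fit.

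S100b, the glial member and the only one of the 10 outside chromosome 3, was represented by 2 probe sets. The brighter read 356, 466 and 502 units in wild type and 623, 492 and 515 units in apoE-/-. The groups overlapped, with wild type replicate 1 lowest and apoE-/- replicate 1 highest. The log2 change of S100b was 0.30 ± 0.16 (SE), with a 95% interval of -0.07 to 0.66 (adjusted p = 0.370), and that of the dimmer probe set was 0.31 ± 0.22 (adjusted p = 0.538 over all probe sets). Of 11 Schwann cell and glial markers tested, none was called, where 3.65% of all genes were. The log2 change was above 0 for 8 of the 11, and for 5379 of all 13052 genes. The median of the 11 was 0.12, against -0.05 over all genes. The summed intensity of these 11 was 9218 to 9808 units in wild type and 9543 to 10699.6 units in apoE-/-. That sum was highest on apoE-/- replicate 1, as S100b was. Its highest wild-type value was on replicate 1, where S100b was lowest. Pmp22 alone gave 5752.5 to 6539.6 units of the sum. Sox10, the transcription factor of the Schwann lineage, lay between 406 and 437 units in wild type and between 378 and 429 units in apoE-/-. The gene of smallest p in that list was Egr2, a regulator of myelin genes (log2 change 0.77 ± 0.27, adjusted p = 0.174).

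Cartilage and fat cells are further sources of S100b. Of 9 chondrocyte markers tested 3 rose, where 3.19% of all genes did. These were Chad, a matrix protein of cartilage, the cartilage collagen Col2a1, by 3.49 ± 0.48 in log2 (SE), and the transcription factor Sox9, by 1.09 ± 0.24. Chad read 22.4, 8.4 and 33.2 units in wild type and 1574, 199.5 and 205 units in apoE-/-. Chad passed the filter through its apoE-/- arrays, as did Col2a1, which read 79.7 to 98.4 units in wild type. With no filter Col2a1 was still called (limma adjusted p = 0.0161), and Chad (adjusted p = 0.0598) and Sox9 (adjusted p = 0.0854) were not. Sox9 was also not called with a log offset of 1 (limma adjusted p = 0.0515), and it fell under a 60% filter. The size of the Chad log2 change depended on the log offset (3.56 with 16, 4.36 with 1 and 2.52 with 64, where it was not called). The sum of the 9 tested genes was highest on apoE-/- replicate 1, at 10581 units, against 6430 and 3766 units on apoE-/- replicates 2 and 3 and 2590 to 3206 units in wild type. Col2a1 was called with any 1 array left out, Sox9 under none of these 6 fits, and Chad only with apoE-/- replicate 2 left out (without apoE-/- replicate 1 it fell under the filter). Of 7 white adipocyte markers none was called, Retn (resistin) having the smallest p (log2 change -0.51 ± 0.20, adjusted p = 0.234). The part of these cell types in the S100b values was not tested. The profiles most like that of S100b were those of Hhipl1, Cd274, Akap4 and Gmds, at root-mean-square differences of 0.06 to 0.07 in log2, none of them called. Here too the lack of a call follows largely from the choice by likeness.

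S100a1, which regulates calcium release channels in heart and skeletal muscle, and S100a13, which takes part in the release of fibroblast growth factor 1, stand side by side, and neither was called. Their promoter windows of 300 bases overlap by 204 bases. S100a1 read 2805, 4025 and 2915 units in wild type and 3581, 3083 and 3812 units in apoE-/-. S100a13 read 3178, 4126 and 2982 units in wild type and 3134, 3173 and 3292 units in apoE-/-. Both were highest on wild type replicate 2, and the other S100a1 probe set was too, at 1519 units against 858 to 1387 units elsewhere. The log2 change of S100a1 was 0.12 ± 0.15 (SE, 95% interval -0.22 to 0.46, adjusted p = 0.719), and that of S100a13 was -0.09 ± 0.12 (95% interval -0.37 to 0.20, adjusted p = 0.758). Without wild type replicate 2 the S100a13 value was 0.06, also not called. The sum of the 7 tested white adipocyte markers was highest on that array as well, at 52201 units against 31623 to 44650 units on the other 5. Of 10 striated muscle markers tested, 2 fell, Casq1 (log2 change -1.08 ± 0.15) and Ryr2 (-0.68 ± 0.15), where 0.467% of all genes fell. Casq1 was called with any 1 array left out, whereas Ryr2 was called only with apoE-/- replicate 2 left out. For 8 of the 10, Ryr2 not among them, the highest array was wild type replicate 3, where S100a1 was not high. The part of fat and muscle in these values was not tested.

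S100a16, a broadly expressed member with weak calcium binding, was nearly level. Its main probe set read 2896, 2689 and 2687 units in wild type and 2806, 2858 and 2714 units in apoE-/-, with all 6 values within the range of the wild-type arrays. The log2 change of S100a16 was 0.02 ± 0.08 (SE), with a 95% interval of -0.17 to 0.20 (adjusted p = 0.927), and that of its further probe set was 0.02 ± 0.11. Only 2.34% of genes tested varied less within genotypes.

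**Figure D4:**
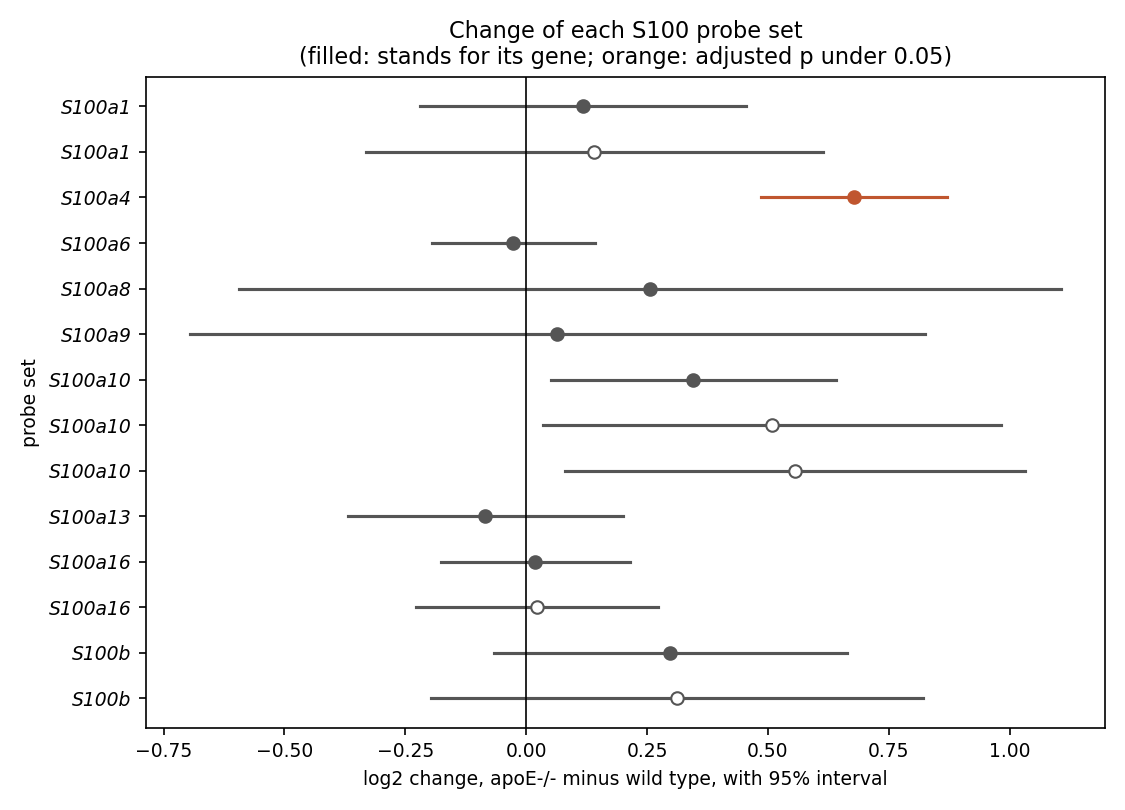
Log2 change, apoE-/- minus wild type, of each of the 14 S100 probe sets, with its 95% interval from the fit over probe sets; filled points stand for their gene, open points are further probe sets, and orange marks an adjusted p under 0.05. Only S100a4 (0.68) is orange, the 3 S100a10 intervals lie above 0 without passing the test, and the intervals of S100a8 and S100a9 are the widest.

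Receptors pass the signal of released S100 proteins into the cell. Of 8 genes of the receptor and signalling list tested, 2 rose and none fell, with a median log2 change of 0.29. Over all genes 3.19% rose, and the median was -0.05. Cd14, a co-receptor of Toll-like receptor 4 that also stands in the macrophage list, rose by 0.93 ± 0.17 in log2 (SE, adjusted p = 0.0227), and Alcam, an adhesion molecule reported to bind S100b, by 0.87 ± 0.16 (adjusted p = 0.0246). With either of wild type replicates 1 and 3 or of apoE-/- replicates 1 and 3 left out neither was called, and with wild type replicate 2 left out 1 was. Tlr4 itself read 717, 647 and 571 units in wild type and 704, 612 and 857 units in apoE-/- (log2 change 0.16 ± 0.15, adjusted p = 0.624). Ager, the receptor for advanced glycation end products, was under the filter at 41.1 to 121 units.

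Of 13 genes of S100 binding partners tested, none rose and 1 fell, Ryr2, the calcium release channel of heart muscle and a target of S100a1, with a log2 change of -0.68 ± 0.15 (SE, adjusted p = 0.0489). Leaving out any 1 array other than apoE-/- replicate 2 ended that call. Anxa2, the partner of S100a10, had a log2 change of 0.25 ± 0.12 (adjusted p = 0.301), and Myh9, the non-muscle myosin bound by S100a4, of 0.28 ± 0.13 (adjusted p = 0.297). The median of that list was 0.00, against -0.05 over all genes, of which 0.467% fell. Anxa2 and Myh9 were singled out after their values were seen.

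Other calcium-binding proteins of the EF-hand type held 2 called genes of 12 tested, both higher, and the list median was 0.14. Over all genes 3.19% were called higher and the median was -0.05. Lcp1, the leukocyte actin bundler L-plastin, rose by 2.53 ± 0.26 in log2 (SE), with means of 541 ± 84.0 units in wild type and 3358 ± 1232 units in apoE-/- (SD, n = 3 each). Aif1, the macrophage protein Iba1, rose by 1.45 ± 0.20, with means of 241 ± 13.9 and 707 ± 206 units. Lcp1 and Aif1 were each called with any 1 of the 6 arrays left out, with adjusted p up to 0.0209 for Lcp1 and 0.0486 for Aif1. In each the apoE-/- replicate 2 array was the lowest of its genotype, at 3.70 times the wild-type mean for Lcp1 and 2.12 times for Aif1. S100a4 was lowest of its genotype on replicate 1, at 1.56 times, against 1.57 times on replicate 2. Lcp1, Aif1 and S100a4 were each highest on replicate 3. Of 10 further names listed with the S100 genes, 2 were tested and none called, S100a5 (log2 change -0.10 ± 0.20) and the S100 binding protein gene S100pbp (0.04 ± 0.10). S100a3, S100a14 and S100g were under the filter, and S100a14 and S100g read 31.3 units or less on every array.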

How the data were processed

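The deposited table gives 1 linear intensity per probe set and array, which the authors had scaled (every array has a mean of 500.002 after trimming 2% at each end); the software is not given in the sources used here. Probe sets were named from the platform annotation, and symbols were updated by gene identifier through the GRCm38.p6 gene table (34754 of 34958 probe sets with 1 symbol). Intensities were taken as log2(intensity + 16). After removal of 64 control probe sets, the lower 40% by mean over all 6 arrays was dropped, and the brightest kept probe set stood for each gene (13052 genes). All 14 S100 probe sets passed this filter. The test between genotypes was that of limma 3.58.1 (R 4.3.3; lmFit and eBayes, intensity trend), two-sided, with Benjamini-Hochberg adjustment over all genes. The same fit over 27022 probe sets gave the values of further probe sets. The fit was tested on simulated data.

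The members and gene lists were chosen with earlier results of these data known. Named genes were the members, Apoe, up to 4 called genes of each pathway list and up to 3 of each cell type list (or the gene of smallest p), and the 4 nearest profiles of S100a4, S100a8, S100a9 and S100b; some further list genes were added after their values were seen. Same-numbered replicates did not deviate together, so the numbers were not taken as pairs. Alternatives are in the closing section. The 3 arrays per genotype limit the precision.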

Additional observations from a re-analysis of the deposited data

How the results depend on the processing

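The count of 1 S100 gene higher and none lower was the same in all 17 alternatives: log offsets of 1 and 64, median centring or quantile normalization, a 60% filter or none, array weights, no intensity trend, the median over a gene's probe sets, a fit over probe sets, a replicate block, and 6 fits that each left out 1 array. Leaving out 1 array gave S100a4 log2 changes of 0.63 to 0.71. With the replicate block S100a4 had adjusted p = 0.0318, while all genes called fell to 314 from 477; without the trend they were 297, and without 1 array 144 to 689. Deviations of same-numbered arrays correlated at -0.12, -0.16 and -0.03, and 0 of the 3 wild-type arrays correlated best with their own number, so the block rests on the numbers alone. S100a9 turned to -0.091 with array weights. Without 1 array S100a8 ranged from -0.11 to 0.63, S100a9 from -0.29 to 0.42 and S100a13 from -0.18 to 0.055, none called. The signs of the other 6 S100 genes held in every alternative. Causes were not tested.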
